A study of Mus musculus with 6 samples.

Results

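The insulin-like growth factor (IGF) system was followed in retinal ganglion cells (RGCs), the projection neurons of the retina, through 10 of the 24060 genes in the count table. Igf1 and Igf2 encode its ligands, Igf1r, Insr and Igf2r its receptors, Irs1 and Irs2 the docking proteins under the receptors, and Igfbp2, Igfbp3 and Igfbp5 secreted binding proteins. The genes were picked by symbol with earlier results of the same E18 and P5 samples in view. For these 10 the differences between the ages are therefore given as a description. Where a threshold is named for them, it is that of the fit over all genes, and no p-value is printed for a member. RGCs were purified from the retinas of C57BL/6 mice, 3 samples from late embryos (E18, replicates 1, 3 and 4) and 3 from early postnatal pups (P5, replicates 6, 8 and 9), with no treatment named. Embryonic RGCs extend axons readily and postnatal RGCs have lost much of that ability, and this is the contrast that the sampling addresses. Animals of both sexes were used, the sex and number of animals behind each sample are not given, and the name of the column behind E18 replicate 1 holds further numbers (2 and 5) whose meaning is not given. The spread reported here is that between samples, which may be partly technical.

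IGF-1 and IGF-2 act mainly through the IGF-1 receptor, a tyrosine kinase that is closely related to the insulin receptor and can pair with it in hybrid receptors. Active receptors phosphorylate the insulin receptor substrates, which recruit PI3 kinase and so switch on Akt and mTOR. The IGF-2 receptor has no kinase, takes up IGF-2 for breakdown and also sorts lysosomal enzymes. Binding proteins hold the ligands outside the cell and either limit or prolong their action until proteases release them. In the visual system IGF-1 is known as a survival and axon growth factor for RGCs.

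Depth was high and even, with 81213639 to 114512853 reads counted on genes per sample, so that 3 counts correspond to 0.0269 to 0.0360 CPM (counts per megaread, with library sizes scaled by TMM). Summed over 15 markers, RGC genes gave 10630 to 12230 CPM at E18 and 10620 to 11630 CPM at P5. Tubb3, Nefl, Gap43 and Stmn2 held the largest parts of that sum. In edgeR 5 of the 15 were higher at E18, such as Isl1 (log2 fold change 1.10), beside 20.8% of all genes. Another 5 were lower, such as Nefh (-1.89), beside 22.5%. Opposite changes therefore offset each other in the sum, which does not show equal RGC content. Rbpms, an RNA-binding protein used to identify RGCs, was at 278 to 321 CPM at E18 and 290 to 327 CPM at P5, and Thy1, the surface protein used for purification, at 212 to 313 and 470 to 688 CPM. Summed markers stayed at or below 2.75 CPM for 9 microglial genes, 6.45 CPM for 9 fibroblast genes, 12.88 CPM for 10 pigment epithelial genes and 1.86 CPM for 7 red blood cell genes, of which Hbb-bs, Hbb-bt and Hba-a1 had no read. The sums for 12 photoreceptor and bipolar genes were 41.7, 14 and 7.31 CPM in E18 replicates 1, 3 and 4 and 8.42 to 9.57 CPM at P5. Those for 12 genes of Müller glia and astrocytes were 436 to 471 CPM at E18 and 349 to 369 CPM at P5. Most of the glial sum was Glul (230 to 325 CPM). The 10 amacrine genes summed to 1499 to 1719 CPM at E18 and 1792 to 1999 CPM at P5. Pax6 (496 to 756 CPM) and Calb2 (753 to 1473 CPM), which RGCs also express, carried these sums. In edgeR 5 of these 10 were higher at E18 and 1, Calb2, was lower. Of 12 genes of dividing progenitors, 9 were higher at E18 and 0 lower, beside 20.8% and 22.5% of all genes. The 12 genes of dividing progenitors summed to 501, 223 and 87.2 CPM in E18 replicates 1, 3 and 4, against 60.5 to 78.5 CPM at P5, with Ccnd1 at 145, 34.7 and 14.2 CPM in those E18 samples. Tfap2b, an amacrine factor, was at 47.3, 120 and 1.63 CPM in the same samples, and the 10 endothelial and pericyte genes summed to 72.3, 64.9 and 16.5 CPM, against 14.6 to 17.8 CPM at P5. At E18 that sum was almost all Kdr (69.3, 63.3 and 14.1 CPM), and of the 7 genes tested 1 was higher and 3 were lower at E18 in edgeR, the latter being Pecam1, Tek and Rgs5, each under 4 CPM. E18 replicates 1 and 3 therefore stood apart from E18 replicate 4 in these markers, and their part in the results was not tested.

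The start-site regions of the members are shown first for the genes with the largest differences between the ages. RefSeq promoter windows (GRCm38.p6, the mm10 assembly) were found for 9 of the 10 members, with 13 start sites, and Insr had none in the table. Each sequence below is the 250 bases before the start site, 5′ to 3′ on the gene's own strand. Capitals mark GGGCGG, the GC box bound by Sp1, on either strand, with touching or overlapping copies run together. The first 3 belong to genes that were higher at E18. They lie at chr7:67952007-67952256 on the plus strand (Igf1r), chr8:11008930-11009179 on the minus strand (Irs2) and chr1:72824230-72824479 on the plus strand (Igfbp2, the first of its 2 start sites). The other two belong to genes that were higher at P5, at chr10:87860861-87861110 on the plus strand (Igf1) and chr1:72874866-72875115 on the minus strand (Igfbp5).
Igf1r: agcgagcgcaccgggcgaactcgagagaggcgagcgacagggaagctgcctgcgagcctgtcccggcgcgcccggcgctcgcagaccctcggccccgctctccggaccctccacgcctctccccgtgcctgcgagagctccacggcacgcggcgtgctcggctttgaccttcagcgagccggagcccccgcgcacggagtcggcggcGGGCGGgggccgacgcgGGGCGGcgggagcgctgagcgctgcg
Irs2: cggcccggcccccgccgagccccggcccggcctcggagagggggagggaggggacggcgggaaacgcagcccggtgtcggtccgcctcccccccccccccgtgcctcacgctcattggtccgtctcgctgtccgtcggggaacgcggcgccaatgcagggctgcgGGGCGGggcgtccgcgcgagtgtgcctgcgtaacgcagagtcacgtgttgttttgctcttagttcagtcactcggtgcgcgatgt
Igfbp2: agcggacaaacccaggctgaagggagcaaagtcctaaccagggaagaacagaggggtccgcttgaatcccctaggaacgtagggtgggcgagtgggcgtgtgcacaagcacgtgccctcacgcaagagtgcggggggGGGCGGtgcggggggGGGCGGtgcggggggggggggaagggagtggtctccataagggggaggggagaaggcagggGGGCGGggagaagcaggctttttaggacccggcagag
Igf1: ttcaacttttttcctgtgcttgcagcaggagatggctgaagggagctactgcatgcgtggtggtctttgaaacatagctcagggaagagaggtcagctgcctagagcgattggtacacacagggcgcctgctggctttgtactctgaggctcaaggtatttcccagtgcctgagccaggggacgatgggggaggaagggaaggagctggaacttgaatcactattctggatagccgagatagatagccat
Igfbp5: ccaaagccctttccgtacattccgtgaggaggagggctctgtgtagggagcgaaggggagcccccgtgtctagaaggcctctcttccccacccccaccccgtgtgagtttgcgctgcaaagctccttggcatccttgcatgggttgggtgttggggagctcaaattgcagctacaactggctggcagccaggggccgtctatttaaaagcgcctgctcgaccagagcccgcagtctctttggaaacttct

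The windows differ in base composition. The window of Igf1r held 42 CpG dinucleotides and was 77.6% G or C, and that of Irs2 held 34 and was 72.8%. The windows of Igfbp2 held 14 and 11 CpG and were 67.2% and 56.4%. Igf1 had 5 CpG and 52.8%, close to the medians of 6 CpG and 52.4% over all 32851 promoter windows of the same length, and Igfbp5 had 10 CpG and 58.8%. GGGCGG was present in 32.7% of all windows, a share per window, whereas the members are counted here per gene. Among the members with a window, all 4 that were called higher at E18 (Igf1r, Igf2r, Irs2 and Igfbp2) had it at a start site, as did Irs1 and Igf2. Start site 2 of Igfbp2 and start sites 1 and 2 of Igf2 lacked it. The motif was added after values were seen, on genes picked from the same contrast, so no link with direction is read. None of the 3 called lower at E18 (Igf1, Igfbp3 and Igfbp5) had it in the window searched, although the window of Igfbp3 was also rich in CpG (32). The window of Igf1 lies inside the annotated span of the gene, which starts at 87858265. The bases before that 5′ end were not searched. Other motifs were sought on both strands, and no member's window held any of them. These were CCGGAAG of Elk-1 and other Ets factors (6.91% of all windows), TGTTTAC of FoxO factors (3.17%) and TATAAA, the TATA box (12.4%). A match of letters is a description only, and its absence from these bases says nothing of the factor.

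**Figure D1:**
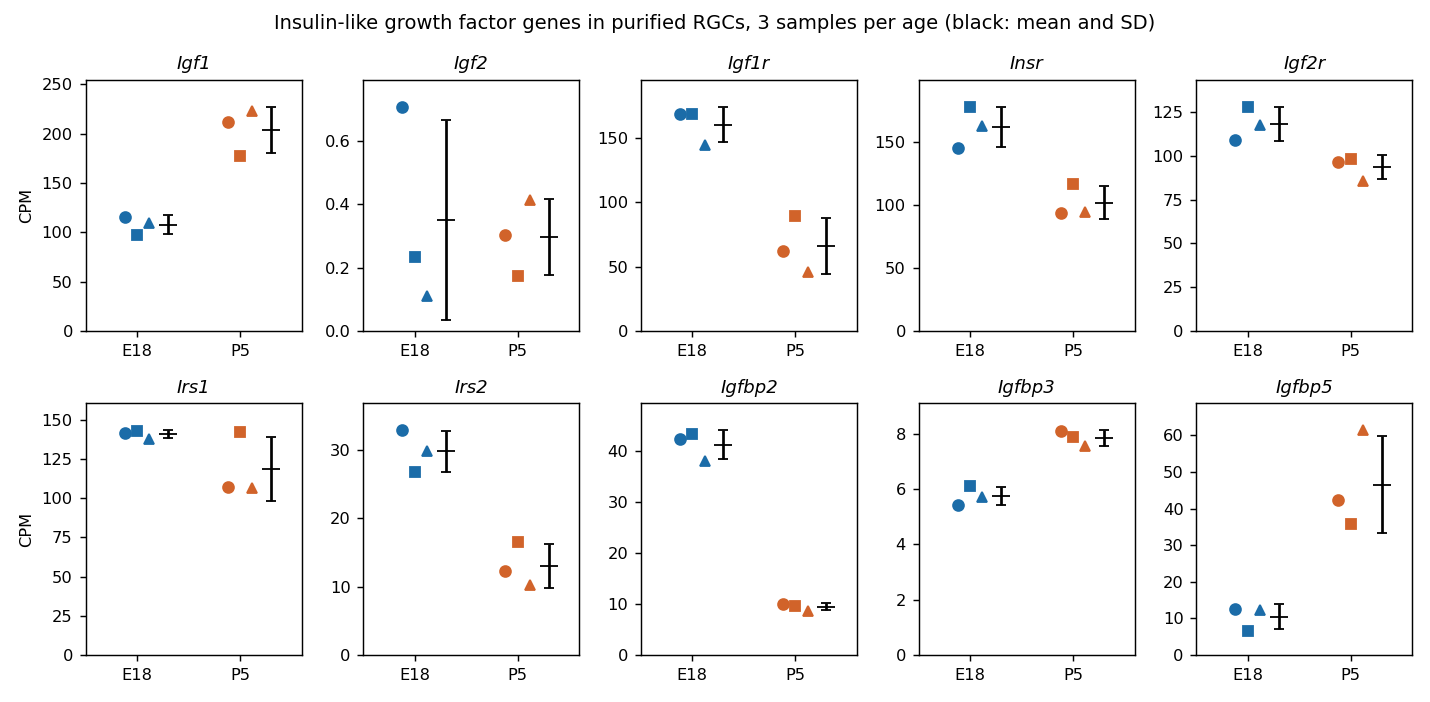
CPM of each of the 10 genes (vertical axis, from 0) in the 3 E18 samples (blue; circle, square and triangle for replicates 1, 3 and 4) and the 3 P5 samples (orange; replicates 6, 8 and 9), with the mean and SD in black. The ages do not overlap for any gene but Igf2 and Irs1. The mean of Igfbp2 was 41.2 CPM at E18 and 9.46 CPM at P5, and that of Igfbp5 was 10.47 and 46.5 CPM.

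Of the 10 members, 8 passed an adjusted p of 0.05 in the fit of all genes by edgeR, beside 43.4% of the 16449 genes tested. Higher at E18 were 5 of them, beside 20.8% of all genes, and 3 were lower, beside 22.5%. For 8 members the values of the 2 ages did not overlap, beside 55.9% of all genes. All 10 passed the filter on low counts. Since the same contrast was in view when the genes were picked, nothing is read from these counts. In bulk RNA, a change in the share of cells that express a gene and a change in RNA per cell cannot be told apart.

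The 2 ligands stood at opposite ends of the expression range. Igf1 (mm10 chromosome 10, plus strand, 87858265 to 87937042) was at 116, 97.6 and 110 CPM in E18 replicates 1, 3 and 4 and at 211, 178 and 223 CPM in P5 replicates 6, 8 and 9. Every P5 sample lay above every E18 sample, with P5 replicate 8 the nearest to the embryonic values. Its log2 fold change of E18 over P5 was -0.93 (standard error 0.115), which is 1.90-fold higher at P5. It ranged from -1.04 to -0.85 when single samples were left out. Its mean CPM, not adjusted for length, was above that of 91.2% of the genes tested, against 9.02% for Igf2.

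Igf2 (chromosome 7, minus strand, 142650766 to 142666816) was close to the lower end of what was tested. It had 59, 26 and 10 reads in E18 replicates 1, 3 and 4 and 27, 17 and 39 in P5 replicates 6, 8 and 9, or 0.708, 0.233 and 0.111 CPM against 0.303, 0.173 and 0.413 CPM. The ages overlapped, and E18 replicate 1 held both the highest value and the largest part of the spread. The log2 fold change was 0.22 with a standard error of 0.635, and it turned to -0.77 without E18 replicate 1. Within E18, Igf2 ran in the same order as the summed markers of dividing progenitors (501, 223 and 87.2 CPM), whereas at P5 the order was the reverse, with sums of 67.2, 78.5 and 60.5 CPM in replicates 6, 8 and 9. The part of such cells in its level was not tested. Igf2 shares exon sequence with the antisense gene Igf2os, which had 4 to 18 reads, and with the annotated gene Gm49394, and since no source gives the strand setting used in counting, its few reads are uncertain. The insulin genes Ins1 and Ins2 had no read in any sample. With 3 counts taken as an approximate upper limit from counting error alone, the limit is 0.0269 to 0.0360 CPM per sample.

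All 3 receptors were higher at E18. Igf1r, the main signalling receptor of both IGFs (chromosome 7, plus strand, 67952827 to 68233668), was at 168.5, 168.3 and 144 CPM at E18 and at 62.0, 89.5 and 46.3 CPM at P5. The P5 samples varied more, with a coefficient of variation of 33.1% against 8.66% at E18, but their highest value still lay well under the lowest at E18. The log2 fold change was 1.28 (standard error 0.209), or 2.42-fold.

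Insr (chromosome 8, minus strand, 3122061 to 3279617), the insulin receptor, had E18 values of 145, 177 and 162 CPM and P5 values of 93.8, 117 and 94.8 CPM. The difference was 1.58-fold (log2 fold change 0.66, standard error 0.116), and the ages were again apart. Igf2r (chromosome 17, minus strand, 12682406 to 12769664), the scavenging receptor, differed least. Its levels were 109, 128 and 117 CPM at E18 and 96.6, 98.1 and 85.6 CPM at P5, 1.26-fold higher at E18 (log2 fold change 0.33, standard error 0.0969). The gap between the lowest E18 and the highest P5 sample was narrow, and Igf2r left the set of genes past the threshold without E18 replicate 3, E18 replicate 4 or P5 replicate 9. The antisense RNA Airn, which lies across Igf2r without sharing its exons, had 8 to 92 reads.

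The docking proteins did not move together. Irs2 (chromosome 8, minus strand, 10984681 to 11008458) was at 32.9, 26.8 and 29.8 CPM at E18 and at 12.3, 16.6 and 10.2 CPM at P5. It was 2.28-fold higher at E18 (log2 fold change 1.19, standard error 0.178). Irs1 (chromosome 1, minus strand, 82233101 to 82291416) was at 142, 143 and 138 CPM at E18 and at 107, 142 and 107 CPM at P5. P5 replicates 6 and 9 thus lay below all E18 samples, while P5 replicate 8 was level with them. Its log2 fold change of 0.24 (standard error 0.120) became 0.37, past the threshold, without that sample. Both genes overlap exons of other annotated genes, Irs2 those of 9530052E02Rik, which had 5 to 36 reads, and Irs1 those of Gm9747.

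The binding proteins held the largest differences of the system, in opposite directions. Igfbp2 (chromosome 1, plus strand, 72824503 to 72852474) had 42.3, 43.3 and 38.0 CPM at E18 and 10.1, 9.66 and 8.66 CPM at P5. Both groups were tight, with coefficients of variation of 6.76% and 7.66%. The fitted difference between the ages was 4.33-fold (log2 fold change 2.12, standard error 0.113). The log2 fold change was 2.10 without E18 replicate 1.

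Igfbp5 lies next to Igfbp2 on chromosome 1 (minus strand, 72857932 to 72874884), with 5457 bases between the ends of both genes, which point towards each other. It had 12.5, 6.60 and 12.3 CPM at E18 and 42.2, 35.8 and 61.4 CPM at P5. It was 4.46-fold higher at P5 (log2 fold change -2.16, standard error 0.280), the mirror of its neighbour. Igfbp3 (chromosome 11, minus strand, 7206086 to 7213923), the main carrier of IGFs in blood, was low in RGCs, at 5.43, 6.10 and 5.71 CPM at E18 and 8.11, 7.87 and 7.57 CPM at P5. Its 1.37-fold higher level at P5 (log2 fold change -0.46, standard error 0.137) was small but stood clear of the spread. It fell short of the threshold in 4 of the 6 fits that left out a sample.

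**Figure D2:**
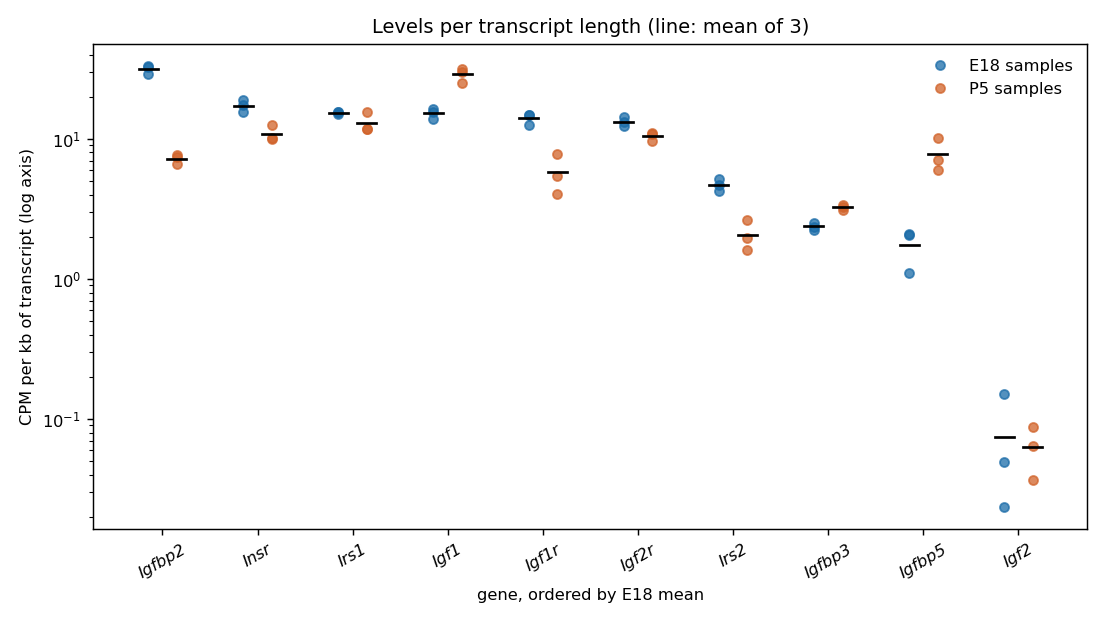
CPM per kilobase of transcript (log axis) for the 10 genes, ordered by their E18 mean, with each sample as a point and the mean of 3 as a line. Igfbp2 led at E18 with 31.5 and Igf1 at P5 with 28.9, and Igf2 was the lowest at both ages, with means of 0.0743 and 0.0628.

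Levels of different genes can be set side by side only per length. Divided by the length of the transcript, Igfbp2 was the most abundant member at E18, at 31.5 ± 2.13 CPM per kb (SD, n = 3). Insr (17.3 ± 1.71), Irs1 (15.4 ± 0.281), Igf1 (15.3 ± 1.33), Igf1r (14.1 ± 1.22) and Igf2r (13.3 ± 1.07) formed a plateau in which each neighbour overlapped the next. Irs2 (4.72 ± 0.479), Igfbp3 (2.37 ± 0.139), Igfbp5 (1.74 ± 0.558) and Igf2 (0.0743 ± 0.0668) followed without overlap.

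At P5 the order had changed. Igf1 was first, at 28.9 ± 3.32 CPM per kb (SD, n = 3), clear of Irs1 at 13.0 ± 2.22. From Irs1 down through Insr (10.9 ± 1.39), Igf2r (10.51 ± 0.769), Igfbp5 (7.74 ± 2.21), Igfbp2 (7.238 ± 0.554) and Igf1r (5.78 ± 1.92), neighbours overlapped. Igfbp3 (3.24 ± 0.113), Irs2 (2.06 ± 0.509) and Igf2 (0.0628 ± 0.0255) were again separate. Igf1r thus went from position 5 to 7, Igfbp5 from 9 to 5 and Igfbp2 from 1 to 6. With the union of all annotated exons as length, Igfbp2 stayed first at E18 (22.3) and Igf1 at P5 (20.6), while the order within the plateau shifted.

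**Figure D3:**
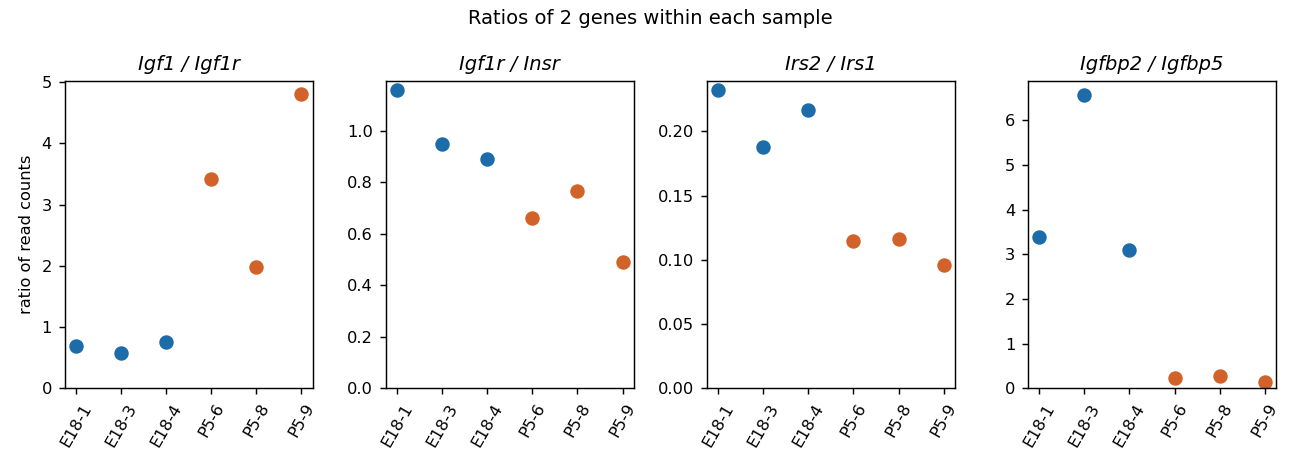
Ratio of the read counts of 2 genes within each sample (vertical axes from 0; blue, E18; orange, P5). The 2 ages do not overlap in any of the 4 ratios, which were chosen after values were seen. The ratio of Igf1 to Igf1r runs from at most 0.760 at E18 to at least 1.99 at P5.

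A ratio of 2 genes within one library does not depend on how libraries are scaled. The reads of Igf1 per read of Igf1r were 0.689, 0.580 and 0.760 in E18 replicates 1, 3 and 4 and 3.41, 1.99 and 4.81 in P5 replicates 6, 8 and 9. The E18 mean was 0.676 ± 0.0904 and the P5 mean 3.40 ± 1.41 (SD, n = 3 per age), and every P5 sample lay above every E18 sample. Igf1r to Insr went from 0.888 to 1.16 at E18 down to 0.489 to 0.766 at P5. The balance of the docking proteins, Irs2 to Irs1, was 0.188 to 0.232 at E18 and 0.0960 to 0.117 at P5. The ratio with the widest gap was that of Igfbp2 to Igfbp5, at 3.38, 6.55 and 3.09 in the E18 samples and 0.238, 0.270 and 0.141 in the P5 samples. All 4 ratios kept the ages apart, as did the ratio of Igf1r to Igf2r (1.23 to 1.55 against 0.541 to 0.912). The pairs were chosen after values were seen, and ratios of other gene pairs were not counted, so nothing is read from this. Igf1 with Igf1r and Igfbp2 with Igfbp5 pair genes already apart in opposite directions, which fixed the separation in advance.

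The P5 samples were not equally far from E18. Of the 8 members past the threshold, P5 replicate 8 was the P5 sample nearest to the E18 mean in 6 and P5 replicate 9 the furthest in 6. On the log2 scale, with the E18 mean at 0% and the P5 mean at 100%, P5 replicate 8 stood at 63.0% for Igf1r, 69.3% for Insr, 69.5% for Irs2, 79.0% for Igf1 and 84.4% for Igfbp5, whereas P5 replicate 9 stood at 114% to 134% for the same genes. Igfbp2 was the tightest, at 95.7%, 98.5% and 106% in P5 replicates 6, 8 and 9. The order was that of the transcriptome at large. Over all 7135 genes past the threshold, P5 replicate 8 was nearest in 64.1% and P5 replicate 9 furthest in 62.4%.

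Around the members, 76 further genes of the pathway were listed by role, and 72 of them could be tested. In edgeR's quasi-likelihood fit, 25 were higher and 16 lower at E18 (56.9% in all, beside the 43.4% of all genes), and 31 did not pass. Their median log2 fold change was 0.17, beside 0.00 over all genes tested. The lists were drawn up with earlier results of the same samples in view, so nothing is read from the larger share. The adjusted p-values given below for single genes carry the same limit.

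**Figure D4:**
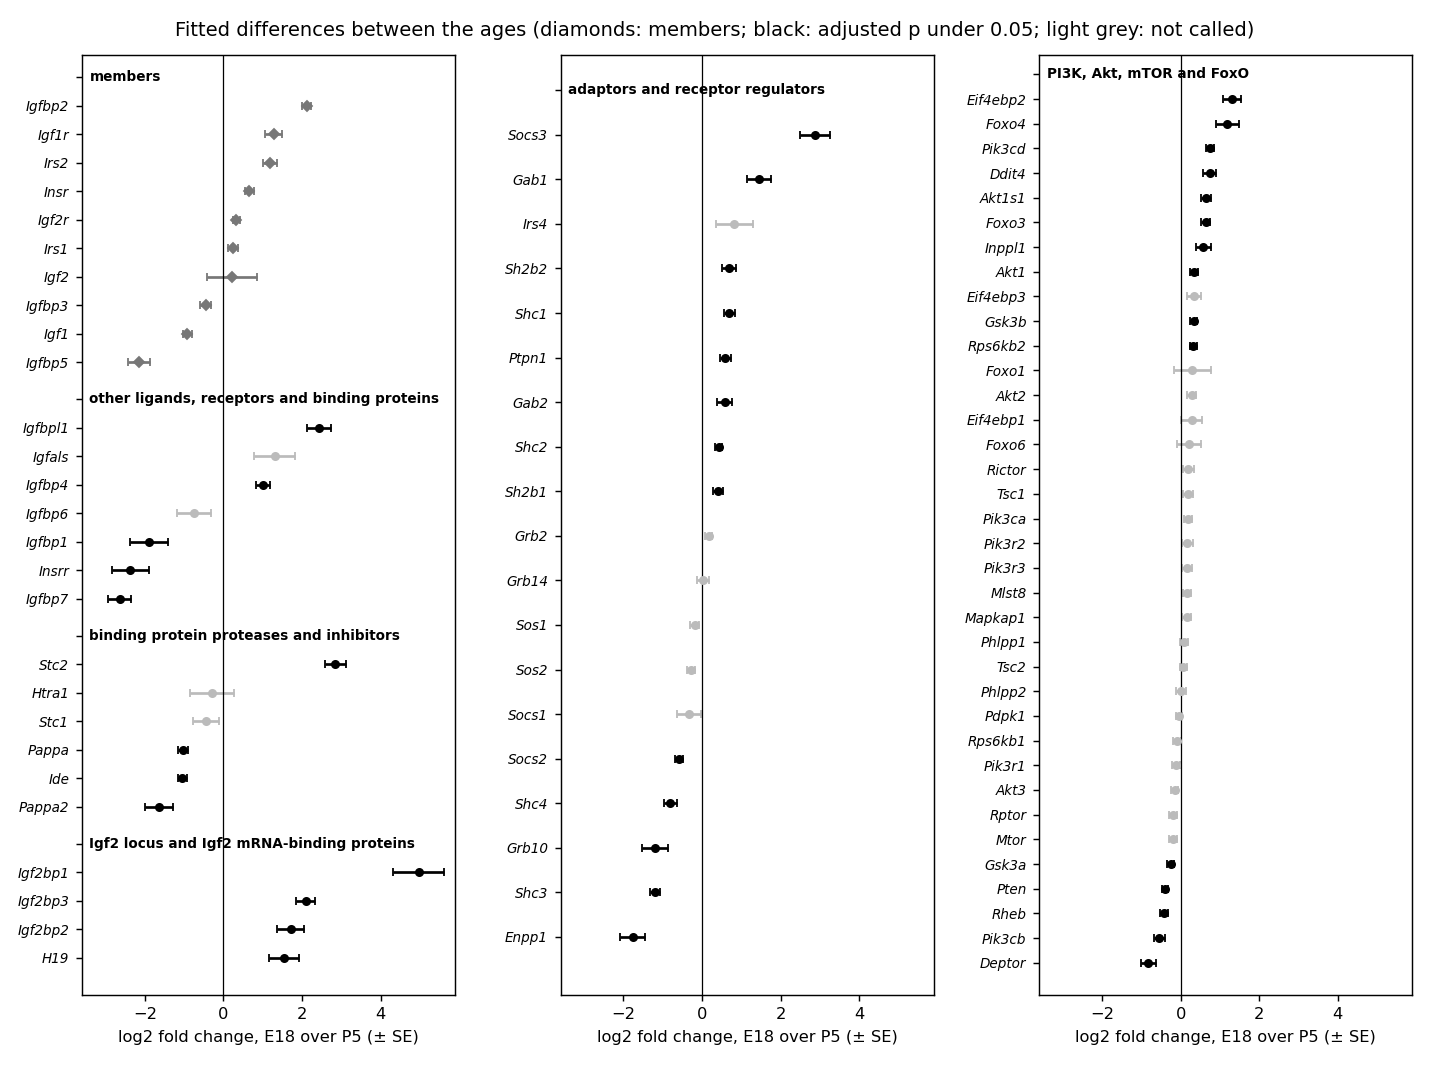
Log2 fold change of E18 over P5 with its standard error for the members (diamonds) and the 72 tested pathway genes (circles; black, adjusted p under 0.05; light grey, not past the threshold), by role. Ligand-binding and protease genes spread from -2.64 (Igfbp7) to 2.85 (Stc2), and adaptors and receptor regulators from -1.77 (Enpp1) to 2.87 (Socs3). Genes of PI3K, Akt, mTOR and FoxO lie between -0.82 and 1.30.

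Among the other ligands, receptors and binding proteins, 2 of the 7 tested were higher and 3 lower at E18, beside 20.8% and 22.5% of all genes. Igfbpl1, a secreted protein that resembles the IGF-binding proteins, was at 107, 126 and 115 CPM at E18 and 23.0, 29.8 and 11.3 CPM at P5. Its level per length at E18, 40.5 ± 3.44 CPM per kb (SD, n = 3), lay above the mean of every member. In edgeR its log2 fold change was 2.43, with a standard error of 0.297 (adjusted p = 0.000628). Igfbp4 was also higher at E18, at 28.2 to 29.4 against 10.51 to 17.75 CPM (log2 fold change 1.01, standard error 0.175, adjusted p = 0.00259 in edgeR). Igfbp7, which binds IGFs only weakly, went the other way at a low level, from 0.333 to 0.528 CPM at E18 to 1.97 to 3.02 CPM at P5 (log2 fold change -2.64, adjusted p = 0.000422 in edgeR). So did Insrr, an insulin receptor relative that senses alkaline pH, with 1.53 to 2.45 CPM at E18 and 10.998, 3.71 and 16.3 CPM in P5 replicates 6, 8 and 9 (log2 fold change -2.37, adjusted p = 0.00473 in edgeR). Igfbp1 was near the floor, with 0.0333 to 0.0808 CPM at E18 and 0.146 to 0.233 CPM at P5 (log2 fold change -1.89, adjusted p = 0.0145 in edgeR, but 0.0521 in DESeq2), and edgeR's call was lost without E18 replicate 1, E18 replicate 4 or P5 replicate 9.

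Of 6 genes for proteases and their inhibitors, 1 was higher at E18 and 3 were lower, beside 20.8% and 22.5% of all genes, and 2 did not pass. Pappa, a protease that cleaves IGFBP-4 and IGFBP-5, was at 8.41 to 10.7 CPM at E18 and 17.4 to 19.7 CPM at P5 (log2 fold change -1.03, standard error 0.134, adjusted p = 0.000818 in edgeR). Its relative Pappa2 was at 2.14 to 3.06 and 4.17 to 12.2 CPM (log2 fold change -1.64, adjusted p = 0.00728 in edgeR). Stc2, a secreted inhibitor of both proteases, was the opposite, at 4.26 to 5.66 CPM at E18 and 0.471 to 0.813 CPM at P5 (log2 fold change 2.85, standard error 0.261, adjusted p = 0.000231 in edgeR). Ide, which degrades insulin, was lower at E18 by 1.05 on the log2 scale (adjusted p = 0.000366 in edgeR), and Stc1 and Htra1 did not pass.

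The adaptors and receptor regulators divided, with 8 of the 19 tested higher at E18, 5 lower and 6 not past the threshold. Over all genes 20.8% were higher and 22.5% lower. Socs3, a feedback inhibitor of cytokine and insulin signalling, was at 29.7, 26.4 and 32.7 CPM at E18 and 4.33, 6.11 and 1.66 CPM at P5 (log2 fold change 2.87, standard error 0.385, adjusted p = 0.000903 in edgeR). The docking protein Gab1 was higher at E18 by 1.46 (adjusted p = 0.00596 in edgeR) and the adaptor Sh2b2 by 0.70 (adjusted p = 0.0145 in edgeR), on the log2 scale. Sh2b2 lost the call without P5 replicate 6 (adjusted p = 0.0625 in edgeR). Grb10, an imprinted inhibitor of the insulin and IGF-1 receptors, was lower at E18, at 78.6, 41.4 and 29.5 CPM against 96.4, 101.1 and 146 CPM (log2 fold change -1.21, adjusted p = 0.0180 in edgeR), and the call was lost without E18 replicate 3 or P5 replicate 9. Its highest embryonic value was in E18 replicate 1. Lower as well were Shc3, the neuronal Shc adaptor (log2 fold change -1.21, adjusted p = 0.000355 in edgeR), and Enpp1, which restrains the insulin receptor and was under 1 CPM throughout (log2 fold change -1.77, adjusted p = 0.00305 in edgeR).

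The 36 genes of PI3K, Akt, mTOR and FoxO ranged from -0.82 to 1.30 in log2 fold change. Of these, 10 were higher at E18, 5 lower and 21 did not pass. Over all genes the shares were 20.8% higher and 22.5% lower, and nothing is read from the counts. Eif4ebp2, a translation repressor under mTOR, was the most strongly higher at E18 (log2 fold change 1.30, standard error 0.233, adjusted p = 0.00298 in edgeR), followed by Foxo4 (1.18, adjusted p = 0.0116) and the PI3 kinase subunit Pik3cd (0.75, adjusted p = 0.000882). The most negative values past the threshold in edgeR were those of the mTOR inhibitor Deptor (-0.82, adjusted p = 0.0111), the PI3 kinase subunit Pik3cb (-0.54, adjusted p = 0.0173) and Rheb, the activator of mTOR (-0.42, adjusted p = 0.0109). Each of these 3 lost the call when a single sample was left out, Deptor without E18 replicate 3, Pik3cb without E18 replicate 1 or 3, and Rheb without E18 replicate 1.

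Igf2 mRNA-binding proteins were higher at E18 although Igf2 itself was scarce at both ages. Igf2bp3 was at 60.03 to 74.4 and 9.64 to 20.1 CPM (log2 fold change 2.09, adjusted p = 0.000481 in edgeR) and Igf2bp2 at 26.7 to 33.9 and 4.98 to 15.1 CPM (1.71, adjusted p = 0.00502 in edgeR). Igf2bp1, at 15.3 to 22.6 and 0.0954 to 1.31 CPM, had the largest log2 fold change of the pathway genes (4.97, adjusted p = 0.000816 in edgeR), which ranged from 4.45 without P5 replicate 9 to 6.07 without P5 replicate 8. H19, the imprinted noncoding RNA beside Igf2, had 26.9, 9.41 and 10.7 CPM at E18 and 4.73 to 5.69 CPM at P5 (1.54, adjusted p = 0.0109 in edgeR), and 0.90 remained without E18 replicate 1.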

How the data were processed

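RNA from RGCs purified by immunopanning was sequenced from 3 E18 and 3 P5 samples. Libraries were depleted of ribosomal RNA, although the labels name polyA RNA, and mm10 alignments from STAR were counted on RefSeq genes by HT-seq. The authors deposited raw read counts per gene, which were used here, beside normalized values and their own EdgeR comparison, which were not. The strand setting is not stated, so overlapping genes may share reads.

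Samples were grouped by age from their titles. Counts were TMM-normalized and fitted in edgeR 4.0.16 (R 4.3.3) by quasi-likelihood over the 16449 genes left by filterByExpr. P-values were adjusted over all of these by Benjamini-Hochberg, with a threshold of 0.05. Standard errors are the log2 fold change divided by the root of the F statistic. CPM use TMM factors of the whole table, and 0.1 CPM was added before log2 values of CPM were taken. Replicates differed beyond sampling noise (chi-square per degree of freedom 30.5 to 141). Lengths are those of the GENCODE transcript of the accession in the table, and for Igf1 of the longest transcript. Coordinates are GENCODE M21.

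The members and lists were chosen with earlier results of these data known. Named are all members, in each pathway list up to 3 genes per direction with the largest changes past the threshold, Igf2bp1 to Igf2bp3 and H19, the 5 genes most like each ligand, Rbpms, Thy1 and markers of other cells above 100 CPM. Ratios, sample order, overlapping genes, base motifs and further markers (Kdr, Pecam1, Tek, Rgs5, Hbb-bs, Hbb-bt, Hba-a1) were added after values were seen, and so were Stc1, Htra1, Ins1 and Ins2. The same holds for the RGC markers Tubb3, Nefl, Gap43, Stmn2, Isl1 and Nefh. Alternatives were DESeq2 1.42.0, the likelihood ratio test, 2 other normalizations, 2 other filters, the omission of each sample and, added after the data were seen, exon unions as length.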

Additional observations from a re-analysis of the deposited data

How the results depend on the processing

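A set of 6 alternative fits and the omission of each of the 6 samples were run. Among members, 117 of 119 log2 fold changes kept their direction and moved by less than the spread between replicates. The 2 that reversed were both of Igf2, at -0.77 without E18 replicate 1 and -0.06 without P5 replicate 8, and its highest value was 0.65 without E18 replicate 4. The cause was not tested. With single samples left out, 6 to 9 members passed the threshold, and Igf1, Igf1r, Insr, Irs2, Igfbp2 and Igfbp5 did so in every fit. The pathway genes past it numbered 32 to 51, where fits have fewer samples. Over all genes it was 4575 of 16775 tested (without E18 replicate 3) to 8796 of 16761 (without P5 replicate 8). Since members and lists were picked with this contrast in view, nothing is read from their counts. Of 25 named pathway genes, 6 lost the call in at least 1 fit, and 5 of these only when a sample was left out. In DESeq2, 8 members passed, beside 7634 of the 16449 genes. No paired analysis was possible because the ages share no replicate number. Levels per length depend on the transcript chosen. For Igf2 and Igfbp1, few reads limit the precision.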

Other observations

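Over the 6 samples, the genes whose log2 CPM followed Igf1 most closely, among 13425 compared (mean CPM of 1 or more), were Mmd2 (Pearson's r = 0.9997), Xk (0.9989), Fam81a (0.9987), Tekt5 (0.9983) and Clrn1 (0.9979). All 5 were low at E18 and high at P5 and shared the dip of Igf1 in P5 replicate 8. Mmd2, for example, was at 1.99, 1.26 and 1.75 CPM in E18 replicates 1, 3 and 4 and at 12.3, 7.42 and 13.7 CPM in P5 replicates 6, 8 and 9. With 6 points that fall into 2 ages, and the same libraries behind both genes, such values describe likeness only.

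For Igf2, which did not separate the ages, the closest genes were Frmd6 (Pearson's r = 0.985), Kif19a (0.977), S1pr3 (0.961), Ano1 (0.948) and Crb2 (0.945). Each was highest in E18 replicate 1, where Ano1 had 6.47 CPM against 0.421 to 1.86 CPM in the other 5 samples. The counts of Igf2 behind the likeness are 10 to 59 reads. The 0.1 CPM added before log2 was close to the lowest Igf2 value, 0.111 CPM in E18 replicate 4, so the likeness also depends on it.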
